A study of Homo sapiens with 8 samples.

Results

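The cytosolic ribosomal proteins, the protein subunits of the ribosomes that translate nuclear-encoded mRNAs, were followed in SUDHL-4 cells, an established human line of diffuse large B-cell lymphoma. Members were chosen by symbol, as names that begin with RPL or RPS and a digit together with RPLP0, RPLP1, RPLP2 and RPSA, without the S6 kinases, RPS19BP1 and RPS4Y1. This gave 84 of the 15597 genes listed in every library: 46 core proteins of the large subunit, 31 core proteins of the small subunit, 4 paralogues (RPL22L1, RPL26L1, RPL39L and RPS27L) and 3 other genes with an L in the name (RPL36AL, RPL3L and RPL7L1). The cells were control cells of WT genotype or cells that overexpressed FDX1 (FDX1-OE), and each received DMSO or 5 nM elesclomol (ES), a compound that carries copper into cells, for 48 h. FDX1 is the gene of a mitochondrial ferredoxin with an iron-sulfur cluster, which acts in protein lipoylation. RNA-seq was done on 2 libraries for each of the 4 groups, numbered 1 and 2 below. The labels name neither the vector behind FDX1-OE nor whether that line is 1 clone, and they name no empty vector for the control cells.

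A ribosome holds 1 copy of most of these proteins, so cells make their mRNAs at high and balanced levels, and in lymphoma these mRNAs are among the most abundant. Nearly all of them begin with a terminal oligopyrimidine (TOP) tract, a C followed by a run of pyrimidines at the very start of the mRNA, through which LARP1 and the kinase mTORC1 control their translation and stability. Assembly of the proteins on ribosomal RNA takes place mostly in the nucleolus, and members left over from it, RPL5 and RPL11 in particular, can bind the ubiquitin ligase MDM2. The paralogues can take the place of their core partners in the ribosome. RNA levels, as measured here, do not report on the translation of these mRNAs.

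The library totals recovered from the deposited values lay between 33435438 and 35883528 reads. At least 99.9% of each total fell in the listed genes, so reads outside them are hardly counted and the full sequencing depth is not known. FDX1 lay between 21.3 and 25.6 FPKM in the 4 control libraries and between 69.9 and 84.8 FPKM in the 4 FDX1-OE libraries. FPKM are reads scaled to gene length and to library size. All 7 B-cell markers listed were present, with a summed level of 1267 to 1580 FPKM. Of the 15 markers of T and NK, myeloid, epithelial and stromal cells in the files, 11 stayed at or below 0.318 FPKM in every library. The others were CD3E, DCN, CD68 and FCER1G. The 5 myeloid markers summed to 3.94 to 4.26 FPKM in control cells in DMSO, 7.02 to 8.10 in FDX1-OE cells in DMSO, 12.1 to 16.4 in control cells in ES and 36.6 to 39.6 in FDX1-OE cells in ES, nearly all from CD68 and FCER1G, while CD14, LYZ and CSF1R remained near 0. The number of genes at 0 was 2601 to 2720 in the DMSO libraries, 2188 and 2303 in control cells in ES, and 1593 and 1558 in FDX1-OE cells in ES. The part of these markers and of the genes at 0 in the differences below was not tested. In bulk RNA, fewer cells of a type and less RNA per cell cannot be told apart.

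The starts of the genes on which the results turn show the TOP tract and its absence. Sequences come from the RefSeq promoter table for GRCh38.p14, matched by symbol. The deposited values were made on hg19, so no coordinate was carried between builds. Of the 84 members 67 were in the table. Each line gives the 20 bases before the annotated start and the 20 bases from it on, so that base 21 is the start. Capitals mark the unbroken run of C and T that covers the start.
RPLP0 (chr12:120201092-120201131, minus strand): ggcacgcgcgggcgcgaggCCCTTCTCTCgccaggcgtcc
RPLP1 (chr15:69452798-69452837, plus strand): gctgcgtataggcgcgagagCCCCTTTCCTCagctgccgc
RPSA (chr3:39406700-39406739, plus strand): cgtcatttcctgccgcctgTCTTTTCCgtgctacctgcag
RPL28 (chr19:55385912-55385951, plus strand): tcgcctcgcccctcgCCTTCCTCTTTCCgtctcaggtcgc
RPS10 (chr6:34426050-34426089, minus strand): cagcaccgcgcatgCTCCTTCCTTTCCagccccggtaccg
RPL3 (chr22:39319604-39319643, minus strand): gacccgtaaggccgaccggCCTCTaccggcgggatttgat
RPS4X (chrX:72277229-72277268, minus strand): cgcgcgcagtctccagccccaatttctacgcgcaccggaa
RPL22 (chr1:6199576-6199615, minus strand): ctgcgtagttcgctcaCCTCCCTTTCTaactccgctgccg
RPL22L1 (chr3:170870176-170870215, minus strand): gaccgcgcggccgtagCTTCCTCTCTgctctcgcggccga
RPL26 (chr17:8383174-8383213, minus strand): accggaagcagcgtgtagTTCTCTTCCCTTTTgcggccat
RPL26L1 (chr5:172958709-172958748, plus strand): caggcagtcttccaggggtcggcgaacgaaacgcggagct
RPS27 (chr1:153990742-153990781, plus strand): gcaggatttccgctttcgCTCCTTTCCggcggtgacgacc
RPS27L (chr15:63157458-63157497, minus strand): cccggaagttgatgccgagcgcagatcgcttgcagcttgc

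A C at the annotated start with at least 4 pyrimidines after it was present in 42 of the 62 core members in the table (67.7%), against 626 of 12367 genes of the files with an entry (5.06%) and 4.04% of the 27305 promoters of the whole table. Of the 5 paralogues and other L-named genes in the table, RPL22L1 alone had it. RPL26L1 and RPS27L began with G, unlike their partners RPL26 and RPS27, whose starts carry the tract. RPL3 began with C but had fewer than 4 pyrimidines after it, and RPS4X was annotated to begin with A. Annotated starts can differ from the starts used in these cells, by a few bases or by many. A missing tract therefore says only that these letters are not at that base, and the share of core members with a tract may be too low. In the full 300 bases of the table, CCGGAAG on either strand, the core of ETS-family sites, was found in 33.9% of core members and 16.8% of genes of the files. GGGCGG on either strand, which SP and KLF factors bind, was found in 54.8% and 64.6%.

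The members spanned a wide range of levels, and most lay near the top of the transcriptome. Together they took 18.25% to 20.28% of the summed FPKM of a library. RPS2, a protein at the mRNA entry of the small subunit, had the highest mean, 4579 FPKM over the 8 libraries. It was followed by RPL41 at 3501, RPS18 at 2900, RPL8 at 2142 and RPL13A at 2127 FPKM. The ranges of RPS2 (4334 to 4850 FPKM) and RPL41 (3201 to 3802 FPKM) did not overlap. The range of RPS18 (2590 to 3218 FPKM) reached into that of RPL41, and those of RPL8 (1909 to 2260 FPKM) and RPL13A (2038 to 2205 FPKM) lay one within the other. At the other end were RPS29 at 11.55, RPS10 at 5.765, RPS27L at 1.767, RPL36A at 0.198 and RPL3L at 0.0056 FPKM. RPL3L, the striated-muscle form of RPL3, had 0 to 3 reads in a library, which is no more than the floor of 3 reads used for detection.

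**Figure D1:**
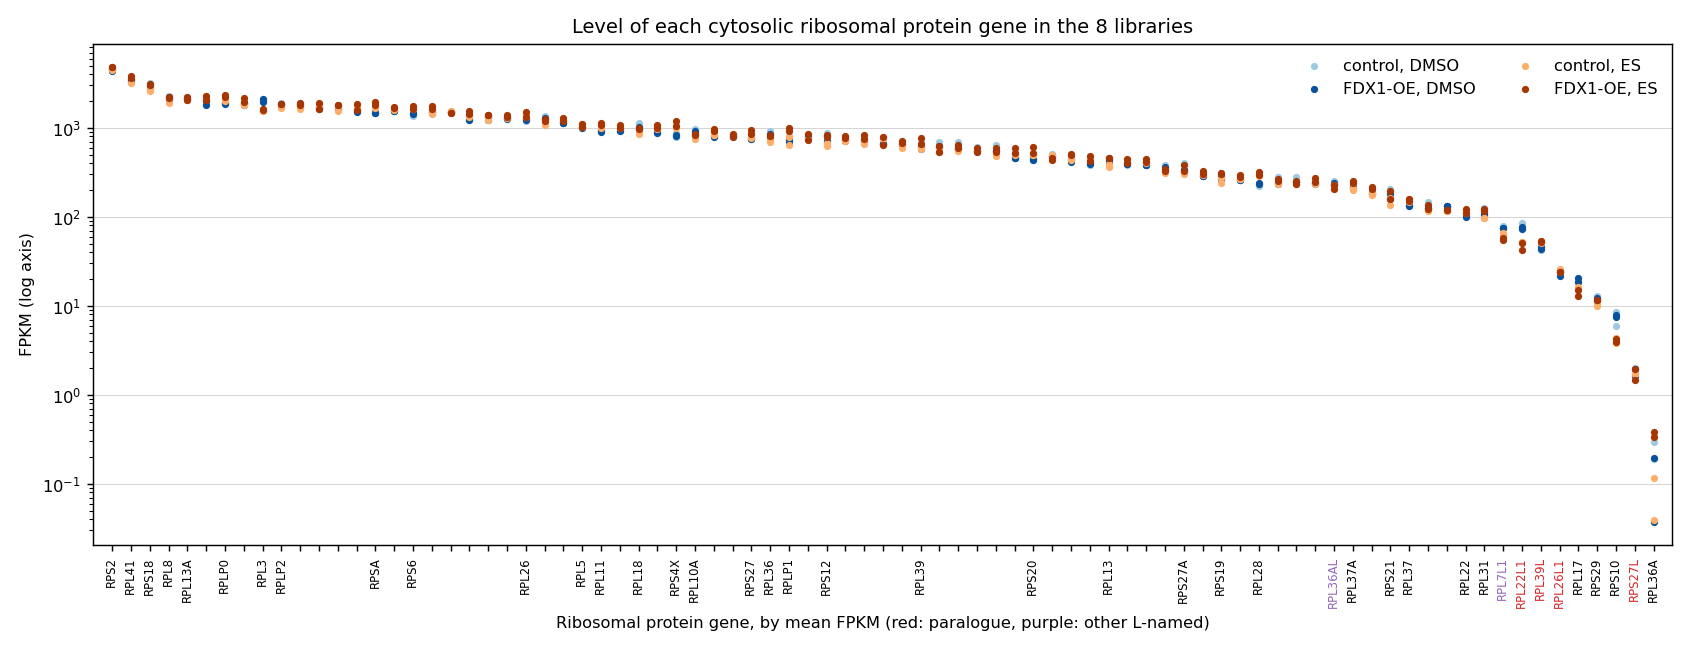
FPKM on a log axis of 83 ribosomal protein genes, ordered by mean, with 1 point for each of the 8 libraries coloured by group; names are given for the main genes described in the text. RPL3L is left out because most of its values are 0. A mean of at least 100 FPKM is reached by 74 of the members, and the paralogues (red labels) are below nearly all core genes.

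Several of the low values belong to genes whose reads are hard to assign. In GENCODE release 29, 9 members overlap another coding gene on the same strand. These include the read-through genes RPL36A-HNRNPH2, RPS10-NUDT3 and RPL17-C18orf32, and RPL36A, RPS10 and RPL17 (17.13 FPKM) were 3 of the lowest core members. Others of the 9 were abundant, among them RPL26 at 1309, RPL36 at 804.1 and RPL22 at 110.8 FPKM. The sources used here do not say how reads shared by overlapping genes were counted, so the levels of RPL36A, RPS10 and RPL17 are uncertain. RPS29 and RPS27L have gene models of 7472 and 6110 bases, among the longest of the members, and a long model lowers FPKM for the same reads. They had 2531 to 3363 and 313 to 424 reads in a library. RPL37, with a model of 7573 bases, had 34424 to 41473. The part of model length in the low values was not tested. In addition 77 of the members have named pseudogenes, 1144 in all and up to 91 for 1 gene, so reads can also be split between near-identical copies. A further feature of the family is that 28 members carry 60 small nucleolar RNA genes inside them.

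Elesclomol in control cells moved few members by much, and more of them down than up. Of 82 members tested (RPL36A and RPL3L did not pass the filter of at least 1 FPKM in at least 2 libraries), 5 rose and 21 fell at an adjusted p below 0.05 in limma on log2(FPKM + 1). Over all 9805 genes tested 25.5% rose and 12.9% fell. The median difference of the members was -0.06 on the log2 scale, with an interquartile range of -0.18 to 0.04, against a median of 0.06 over all genes. With RLE scaling, which sets the median ratio between libraries to 1, the counts were 3 and 36 and the median was -0.13, against 0.00 over all genes, of which 1856 rose and 1888 fell in place of 2498 and 1269. RPS10 and RPL22L1 were the members past 1.5-fold.

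Both subunits had more falls than rises in this comparison. In the large subunit 2 of 45 core members rose and 11 fell, with a median of -0.06. In the small subunit 2 of 31 rose and 8 fell, with a median of -0.07. The count of falls over both subunits and the other members was lower without control DMSO library 1 or control ES library 2. Fewer of all genes were called in those fits too. There the median of the members was -0.02 and -0.05, against 0.06 and 0.07 over all genes. Without control DMSO library 2 it was -0.11. Across the 18 alternative settings 8 calls were made every time, RPL28 as higher and RPL3, RPL10A, RPL18, RPL22L1, RPL36, RPL7L1 and RPS10 as lower.

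RPL3, which reaches toward the peptidyl transferase centre of the large subunit, showed the clearest fall among the abundant members. It stood at 2089 and 2046 FPKM in control cells in DMSO and at 1554 and 1526 in ES. In FDX1-OE cells it stood at 2098 and 1968 in DMSO and at 1616 and 1599 in ES. All 4 ES libraries lay below all 4 DMSO libraries. The log2 difference was -0.42 (SE 0.05, adjusted p = 0.000113 in limma) in control cells and -0.34 (adjusted p = 0.000147) in FDX1-OE cells.

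RPL28, a large-subunit protein, moved the other way. Its levels were 224.2 and 230.3 FPKM in control cells in DMSO, 283.8 and 295.0 in control cells in ES, 232.6 and 237.5 in FDX1-OE cells in DMSO, and 295.6 and 320.4 in FDX1-OE cells in ES. The ES and DMSO libraries did not overlap in either genotype. The log2 difference was 0.35 (95% interval 0.23 to 0.46, adjusted p = 0.000691) in control cells and 0.39 (0.27 to 0.50, adjusted p = 0.000126) in FDX1-OE cells.

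RPS4X, the X-linked copy of a small-subunit protein, rose from 868.3 and 795.4 to 993.0 and 1047 FPKM in control cells and from 806.8 and 838.7 to 1042 and 1189 FPKM in FDX1-OE cells. The log2 differences were 0.30 (adjusted p = 0.0066) and 0.44 (adjusted p = 0.000325). In control cells the call was lost without control DMSO library 2 (0.23, adjusted p = 0.0575). RPS6, the small-subunit protein phosphorylated by the S6 kinases downstream of mTORC1, rose by a like amount in both genotypes, with log2 differences of 0.23 and 0.22 (adjusted p = 0.00497 and 0.00364), the latter 0.12 and not called with RLE scaling (adjusted p = 0.0614). Its level was 1352 to 1484 FPKM in the DMSO libraries and 1610 to 1736 FPKM in the ES libraries, with no overlap.

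RPS10, which sits at the beak of the small subunit, fell from 8.525 and 5.952 FPKM to 3.839 and 4.328 in control cells and from 7.856 and 7.477 to 4.257 and 3.888 in FDX1-OE cells. On the log2(FPKM + 1) scale, which understates the change of low genes, the differences were -0.68 (adjusted p = 0.00204) and -0.77 (adjusted p = 0.000431). The gene had between 106 and 244 reads in a library and overlaps RPS10-NUDT3. RPL17, which lines the exit tunnel of the large subunit and overlaps RPL17-C18orf32, fell by 0.26 (adjusted p = 0.024) in control cells and by 0.48 (adjusted p = 0.000489) in FDX1-OE cells. Its call in control cells was lost without any 1 of the 4 control libraries (adjusted p up to 0.125), and that in FDX1-OE cells was kept in every setting.

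RPS12 and RPS21, both of the small subunit, were the next largest falls in control cells, with log2 differences of -0.32 and -0.37. RPS12 went from 884.6 and 736.0 to 672.7 and 622.1 FPKM, and RPS21 from 202.9 and 183.0 to 162.7 and 137.1. Neither call held with control DMSO library 1 left out (adjusted p = 0.116 and 0.133) or without control ES library 2 (0.0842 and 0.146). In FDX1-OE cells neither was called, with differences of 0.09 and 0.05. When the filter on low values was dropped, which raised the genes tested to 15597, the control-cell calls of RPS4X, RPS6, RPL17, RPS12 and RPS21 were all lost, with adjusted p between 0.052 and 0.119.

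Elesclomol in FDX1-OE cells raised more members than it lowered at the deposited scaling. Of the 82 tested, 32 rose and 7 fell, where 37.0% of all genes rose and 19.2% fell, so that the share of members that rose (39.0%) lay near the share over all genes. The median difference was 0.12, with an interquartile range of 0.02 to 0.19, against 0.09 over all genes. This balance depended on the scaling. With RLE scaling 9 members rose and 12 fell, where 27.6% of all genes rose and 27.6% fell. The median was then 0.02, against 0.01 over all genes. The count of rises was lower without FDX1-OE ES library 2 or either FDX1-OE DMSO library. Fewer of all genes were called in those fits too. The median of the members was 0.09 without FDX1-OE ES library 2, 0.14 without FDX1-OE DMSO library 1 and 0.10 without FDX1-OE DMSO library 2. Over all genes it was 0.09, 0.09 and 0.10.

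In the large subunit 19 of 45 core members rose and 3 fell, and in the small subunit 12 of 31 rose and 1 fell, while under RLE scaling these counts were 4 and 6, and 5 and 3. The calls made in each of the 18 alternative settings numbered 14. Among them were RPL11, RPL28, RPLP0, RPLP1, RPS20, RPS27, RPS4X and RPSA as higher, and RPL17, RPL22L1, RPL3, RPL7L1 and RPS10 as lower.

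RPSA, the small-subunit protein also known as the laminin receptor, stood at 1484 and 1473 FPKM in FDX1-OE cells in DMSO and at 1822 and 1967 in ES. In control cells it stood at 1580 and 1500 in DMSO and at 1690 and 1675 in ES. The DMSO and ES libraries did not overlap in either genotype. The log2 difference was 0.36 (SE 0.05, adjusted p = 0.000172) in FDX1-OE cells and 0.13 (adjusted p = 0.0657) in control cells. RPS20, of the head of the small subunit, stood at 436.6 and 447.7 FPKM in FDX1-OE cells in DMSO and at 524.2 and 601.6 in ES, a log2 difference of 0.34 (adjusted p = 0.00199).

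The stalk of the large subunit recruits elongation factors to the ribosome. RPLP0 anchors it, and RPLP1 and RPLP2 form its arms. RPLP1 was at 740.8 and 690.3 FPKM in FDX1-OE cells in DMSO and at 999.8 and 910.6 in ES, but at 808.6 and 719.9 in control cells in DMSO and at 779.3 and 644.9 in ES. The control groups overlapped and the FDX1-OE groups did not. Its log2 difference was 0.42 (95% interval 0.22 to 0.61, adjusted p = 0.00244) in FDX1-OE cells and -0.11 (-0.30 to 0.09, adjusted p = 0.368) in control cells. RPLP0 gave 0.29 (adjusted p = 0.000783) in FDX1-OE cells and 0.07 (adjusted p = 0.27) in control cells. RPLP2 passed the test in neither, with 0.07 and -0.11.

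RPL5 and RPL11 travel together with the smallest ribosomal RNA as a particle that can bind MDM2. RPL11 rose in FDX1-OE cells, from 904.1 and 910.6 to 1062 and 1123 FPKM (log2 difference 0.27, adjusted p = 0.00113), and gave 0.09 in control cells (adjusted p = 0.171). RPL5 lay between 996.7 and 1111 FPKM in all 8 libraries, and its differences of 0.01 and 0.06 did not pass the test. RPS19, the protein most often mutated in Diamond-Blackfan anaemia, gave -0.19 in control cells (adjusted p = 0.0612) and 0.18 in FDX1-OE cells (adjusted p = 0.0551). These were called in 5 and 10 of the 18 alternative settings. Among those was limma-voom on recovered reads (adjusted p = 0.0269 and 0.0219). RPS27A, made as a fusion with ubiquitin, fell by 0.27 in control cells (adjusted p = 0.0337), a call lost without control DMSO library 1 (adjusted p = 0.273), control ES library 1 (0.071) or control ES library 2 (0.137), and gave 0.05 in FDX1-OE cells.

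The 5 most abundant members moved little. RPS2, RPL41, RPL8 and RPL13A passed the test in neither genotype, and their differences ran from -0.14 to 0.16. Of the 18 alternative settings, 7 called RPL41 and 4 called RPS2 in FDX1-OE cells. In control cells 4 called RPL8 and 1, RLE scaling, called RPL13A (-0.16). RPS18 fell by 0.20 in control cells (adjusted p = 0.0321), from 3218 and 2880 to 2709 and 2590 FPKM, and gave 0.11 in FDX1-OE cells. That call was lost without control DMSO library 1 (adjusted p = 0.229), control ES library 1 (0.06) or control ES library 2 (0.15).

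The elesclomol comparisons in control and in FDX1-OE cells contrast separate libraries. The fit takes the spread of each gene from all 8 libraries, so their calls are not independent. Calls are set side by side here for the members only, and the same overlap was not counted over all genes. The 5 members that rose in control cells, RPL28, RPL37, RPL39L, RPS4X and RPS6, were all among the 32 that rose in FDX1-OE cells. Of the 21 that fell in control cells, 6 (RPL14, RPL17, RPL22L1, RPL3, RPL7L1 and RPS10) were among the 7 that fell in FDX1-OE cells, 14 were not called there, and RPL37A was called higher there. The fall of RPL37A in control cells (-0.16, adjusted p = 0.047) was the least secure of these, since it was lost in 8 of the 18 settings, among them those without control DMSO library 1, either control ES library or either FDX1-OE DMSO library. Its rise in FDX1-OE cells (0.22, adjusted p = 0.00714) was lost with RLE scaling alone (0.12, adjusted p = 0.0954). The rise of RPL37 in control cells (0.17, adjusted p = 0.0319) was lost in 7 settings, RLE scaling and the omission of either control DMSO library or control ES library 2 included. The differences in both genotypes had a Pearson r of 0.73 and a Spearman rho of 0.64 across the 82 members, against 0.84 and 0.81 across all 9805 genes. These points share libraries within a genotype and are not independent. The log2 difference was larger in FDX1-OE than in control cells for 73 of 82 members (89.0%), against 55.2% of all genes.

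**Figure D2:**
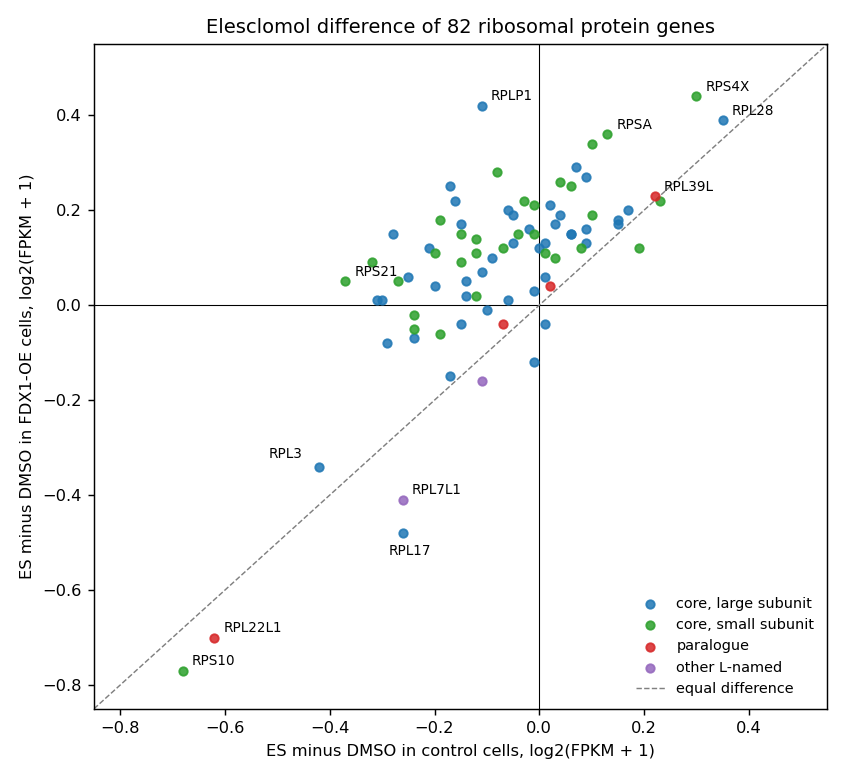
Difference of ES minus DMSO on the log2(FPKM + 1) scale in control cells (x axis) and FDX1-OE cells (y axis), 1 point for each of 82 members coloured by class, with the dashed line of equal difference. Most points lie above the line, and RPS10 and RPL22L1 lie apart at the lower left.

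FDX1 overexpression by itself changed no member detectably. In DMSO 0 of 82 members passed the test in either direction in limma, where 0.428% of all genes were higher and 0.0816% lower. At an unadjusted p below 0.05 there were 0 higher and 2 lower, and limma-voom on recovered reads called 0 as well. Of the 82 members 75 lay below 0, against 4870 of 9805 genes. The median of the members was -0.06, with an interquartile range of -0.10 to -0.03, against 0.00 over all genes. Without control DMSO library 1 this median was -0.01, and without control DMSO library 2 it was -0.10. No member exceeded 1.5-fold.

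In elesclomol, FDX1-OE cells had higher levels than control cells for 16 members and a lower level for 1, RPL7L1, where 13.6% of all genes were higher and 7.78% lower. The median was 0.10, against 0.03 over all genes. Under RLE scaling the counts were 11 and 2 with a median of 0.07, where 11.2% of all genes were higher and 10.6% lower. Fewer members were called higher without control ES library 2 or FDX1-OE ES library 2, and fewer of all genes were called in those fits too. There the median of the members was 0.10 and 0.05, against 0.02 over all genes in both. The largest differences were those of RPLP1 (0.43, adjusted p = 0.00808), RPS12 (0.31, adjusted p = 0.0255), RPL31 (0.30, adjusted p = 0.0112), RPL39 (0.27, adjusted p = 0.0196) and RPS19 (0.27, adjusted p = 0.0246). Each of these calls was lost without control ES library 2, with adjusted p between 0.068 and 0.193. RPLP1 also lost its call without FDX1-OE ES library 1, RPL31 and RPL39 without FDX1-OE ES library 2, and RPS12 and RPS19 without either. RPL7L1 gave -0.18 (adjusted p = 0.0366), a call lost in 8 of 18 settings.

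The difference between the genotypes in the response to elesclomol was tested as an interaction, positive where the value is larger in FDX1-OE cells. It called 5 members higher and 0 lower, where 3.25% of all genes were higher and 1.05% lower. The median over the members was 0.17, against 0.03 over all genes. Without control DMSO library 1 it was 0.11, and without control DMSO library 2 it was 0.21. With RLE scaling it was 0.14 and 3 were called, where 2.56% of all genes were higher and 1.57% lower. The 5 were RPL13, RPL31, RPL37A, RPL39 and RPLP1, all of the large subunit. No difference between the subunits follows from this, since the median interaction was 0.16 in the large and 0.22 in the small subunit, where RPS27 (adjusted p = 0.0602) and RPS19 (0.0678) were next to the threshold and up to 7 members were called in other settings. RPL31, a protein beside the exit of the nascent chain, fell from 125.7 and 110.0 to 97.75 and 96.01 FPKM in control cells, while in FDX1-OE cells it read 111.3 and 103.9 in DMSO and 116.5 and 121.7 in ES. Its interaction was 0.42 (SE 0.09, adjusted p = 0.0364). RPL37A read 240.7 and 218.9 against 210.1 and 201.6 FPKM in control cells and 214.1 and 211.3 against 241.5 and 253.3 in FDX1-OE cells, an interaction of 0.37 (adjusted p = 0.0307). These 5 calls were fragile, and most fits without 1 library also called fewer of all genes. With 1 library left out the count ran from 0 to 7, and it was 0 without control DMSO library 1, either FDX1-OE DMSO library, control ES library 2 or FDX1-OE ES library 2, and 1 without FDX1-OE ES library 1. With the replicate number as a block it was 12, where 3.97% of all genes were called higher.

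The members together took 18.9% ± 0.503 (SD, n = 2) of the summed FPKM in control cells in DMSO, 18.4% ± 0.243 in FDX1-OE cells in DMSO, 18.5% ± 0.220 in control cells in ES and 19.9% ± 0.488 in FDX1-OE cells in ES. The FDX1-OE libraries in ES (19.59% and 20.28%) lay above the other 6, of which control DMSO library 1 was closest at 19.30%. By share of reads the means were 7.87%, 7.59%, 7.68% and 8.27% in the same order, and there FDX1-OE ES library 1 (8.055%) lay below control DMSO library 1 (8.094%). The large subunit took 10.4% to 11.1% and the small subunit 7.85% to 8.72% in the group means, and both were highest in FDX1-OE cells in ES. From DMSO to ES the mean share differed by 1.51 percentage points in FDX1-OE cells and by -0.41 in control cells. A share within a library does not depend on scaling between libraries, but the summed FPKM does. After RLE scaling the members summed to 78050 and 73860 in control cells in DMSO, 70810 and 69610 in control cells in ES, 74090 and 71850 in FDX1-OE cells in DMSO, and 72210 and 75640 in FDX1-OE cells in ES. On that scale the control libraries in ES lay below those in DMSO, and the FDX1-OE libraries overlapped.

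**Figure D3:**
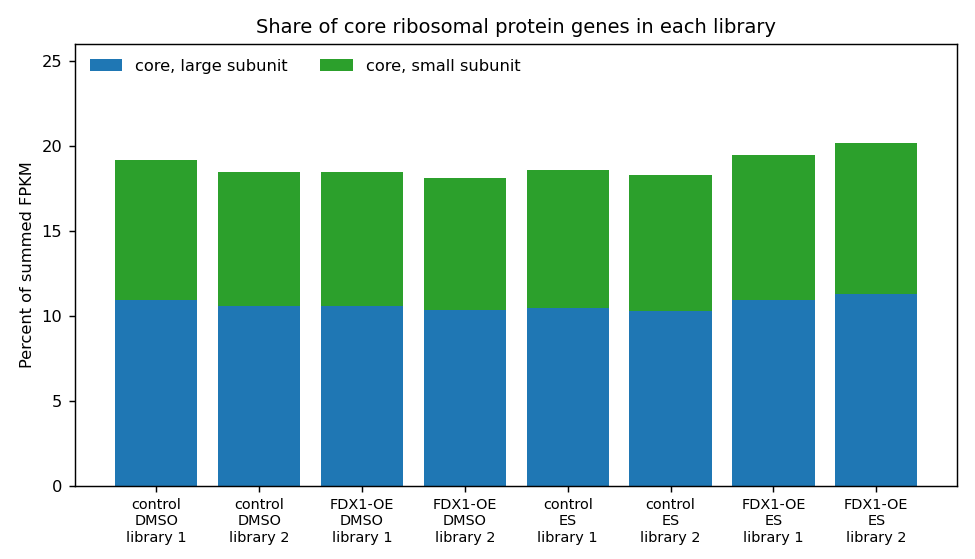
Percent of the summed FPKM of each library taken by core ribosomal protein genes of the large subunit (blue) and small subunit (green), 1 bar for each of the 8 libraries. Both FDX1-OE libraries in ES have the tallest bars.

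RPL22L1 had the largest change among the 4 paralogues. It is the paralogue of RPL22, an RNA-binding protein of the large subunit, and in other cells each is known to affect the level of the other. RPL22L1 stood at 85.72 and 75.74 FPKM in control cells in DMSO, 51.79 and 52.11 in control cells in ES, 73.26 and 77.05 in FDX1-OE cells in DMSO and 41.80 and 50.15 in FDX1-OE cells in ES. All ES libraries lay below all DMSO libraries. It fell by 0.62 on the log2 scale in control cells (SE 0.08, adjusted p = 0.000386) and by 0.70 in FDX1-OE cells (SE 0.08, adjusted p = 5.94e-05), and neither call was lost in any setting.

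RPL22 itself was not lower in ES. It read 115.9 and 105.2 FPKM in control cells in DMSO, 111.6 and 116.1 in control cells in ES, 99.76 and 104.8 in FDX1-OE cells in DMSO and 111.1 and 121.9 in FDX1-OE cells in ES. Its difference was 0.04 (adjusted p = 0.613) in control cells and 0.19 (adjusted p = 0.0301) in FDX1-OE cells, a call lost under RLE scaling (0.08) and without FDX1-OE DMSO library 1 (adjusted p = 0.165), FDX1-OE DMSO library 2 (0.0508) or FDX1-OE ES library 2 (0.205). RPL22L1 therefore came to 72.0% to 73.9% of RPL22 in the 4 DMSO libraries, 46.4% and 44.9% in control cells in ES, and 37.6% and 41.1% in FDX1-OE cells in ES. This ratio is taken within a library, so its change does not depend on how libraries are scaled to each other. Averaged over the genotypes, the log2 ratio was 0.79 lower in ES (a difference of -0.79), and leaving out any 1 library gave -0.82 to -0.76. An exact two-sided permutation test of the treatment labels within genotype gave p = 0.0556, the smallest that its 36 arrangements allow, and 0.111 after Benjamini-Hochberg adjustment over the 4 pairs.

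The other 3 pairs moved less. RPL39L, which is known mainly from testis, rose from 42.65 and 45.99 to 53.34 and 50.17 FPKM in control cells and from 43.97 and 45.29 to 53.36 and 51.53 in FDX1-OE cells. Its log2 differences were 0.22 (adjusted p = 0.0135) and 0.23 (adjusted p = 0.00681). The call in control cells was lost without control DMSO library 1 (adjusted p = 0.102) or control ES library 1 (0.0883), and that in FDX1-OE cells without FDX1-OE DMSO library 1 (0.0503). Both were lost under RLE scaling (0.15 and 0.13). RPL39L came to 6.14% to 8.93% of RPL39, a protein of the exit tunnel, whose own rise in FDX1-OE cells (0.25, adjusted p = 0.00941) was lost with RLE scaling and without FDX1-OE DMSO library 2 or FDX1-OE ES library 2. The ratio was higher in both ES libraries than in both DMSO libraries of control cells and overlapped between treatments in FDX1-OE cells, with an exact p of 0.222.

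RPL26L1 was at 21.44 to 25.71 FPKM in all libraries and passed no test, with differences of 0.02 (95% interval -0.14 to 0.18) and 0.04 (-0.12 to 0.20). It came to 1.61% to 2.02% of RPL26. RPS27L was at 1.473 to 1.998 FPKM and passed no test either, with differences of -0.07 (-0.30 to 0.17) and -0.04 (-0.27 to 0.20). It came to 0.171% to 0.260% of RPS27. For that pair the permutation p was also 0.0556, with a log2 ratio difference of -0.18 that was nearly all from FDX1-OE cells (-0.35, against -0.02 in control cells). Between genotypes the permutation p lay between 0.222 and 0.611. With a smallest possible p of 0.0556, this design could not reach 0.05 for any pair.

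**Figure D4:**
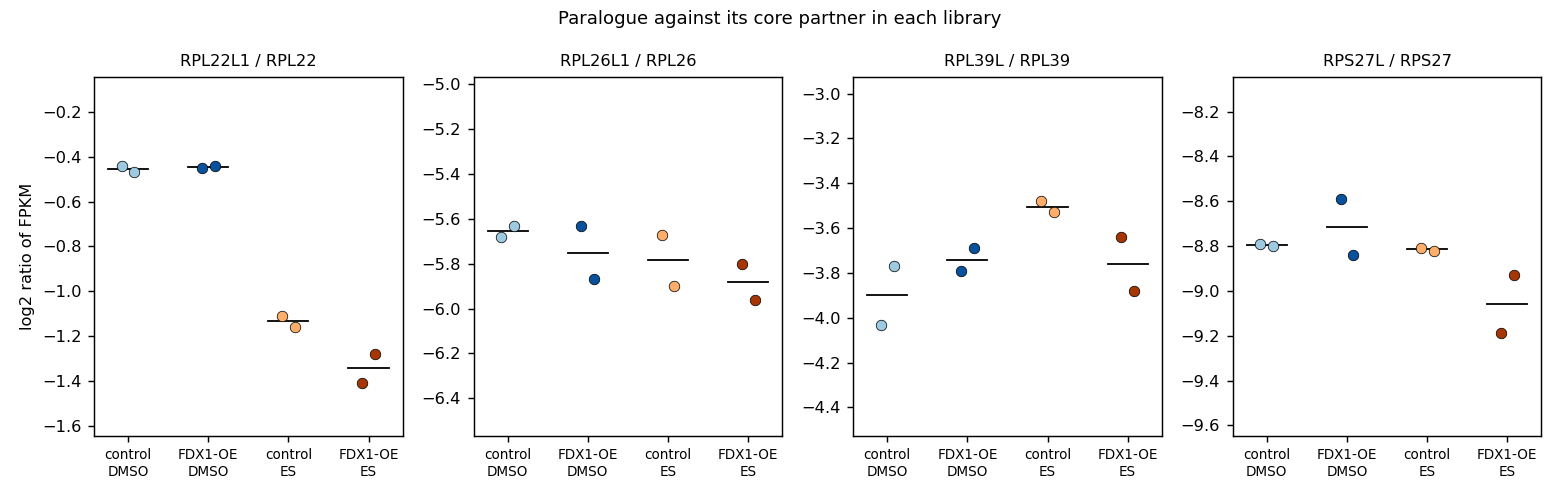
log2 ratio of the FPKM of each paralogue to that of its core partner, with 1 point for each library and a bar at the mean of each group of 2; every panel spans the same height. The RPL22L1 to RPL22 ratio is lower in the 4 ES libraries than in the 4 DMSO libraries, and the means of the other pairs differ by less than that.

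Set against the core members, the paralogues showed no common direction: 1 of 4 rose (RPL39L) and 1 fell (RPL22L1) in each genotype, with medians of -0.02 and 0.00, and under RLE scaling RPL22L1 alone was called. Of the other L-named genes, RPL7L1, a nucleolar factor of large-subunit assembly, fell from 77.90 and 75.41 to 61.82 and 65.92 FPKM in control cells and from 74.16 and 75.78 to 55.18 and 57.36 in FDX1-OE cells. Its differences were -0.26 (adjusted p = 0.00364) and -0.41 (adjusted p = 0.000106), and neither call was lost in any setting. RPL36AL, a retrogene copy of RPL36A, gave -0.11 (adjusted p = 0.169) and -0.16 (adjusted p = 0.0412). The latter call was lost in 8 of 18 settings, among them those without either FDX1-OE DMSO library, either control ES library or FDX1-OE ES library 1, and with RLE scaling the control-cell value was called too (-0.18).

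Core members were also set apart by whether the annotated start carries the pyrimidine tract. For elesclomol in FDX1-OE cells the median difference was 0.12 for the 41 tested members with the start and 0.12 for the 20 without it. In control cells the medians were -0.11 and -0.04, and for the interaction they were 0.19 and 0.16. These are descriptions of the members in the promoter table by annotated start. A member that uses another start in these cells may stand in the wrong class.

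Other genes of the pathway were read from lists of the machinery around these proteins. Of 14 other mRNAs that begin with a TOP tract, 2 rose and 3 fell in control cells, and 3 rose and 3 fell in FDX1-OE cells, with a median of -0.01 in both. Over all genes 25.5% rose and 12.9% fell in control cells, and 37.0% rose and 19.2% fell in FDX1-OE cells. With RLE scaling 2 rose and 4 fell (median -0.07), and 1 rose and 4 fell (median -0.11). PABPC1, the poly(A)-binding protein, rose in both (0.36 and 0.23, the latter lost with RLE scaling and without FDX1-OE DMSO library 1 or FDX1-OE ES library 2), as did TPT1 (0.25 and 0.34), whereas EIF4B, an initiation factor, fell in both (-0.20, lost without control ES library 1, and -0.39). HNRNPA1, a splicing factor, gave -0.06 in control cells (adjusted p = 0.378) and fell by 0.37 in FDX1-OE cells. Falls in control cells numbered 1 without either control ES library, and rises in FDX1-OE cells 1 without FDX1-OE ES library 2. Among ribosomal proteins that the symbol rule leaves out, FAU fell in control cells (-0.37, adjusted p = 0.000818) and in FDX1-OE cells (-0.18, adjusted p = 0.023), the latter call lost without FDX1-OE DMSO library 1 or either FDX1-OE ES library, while RACK1 passed in neither (-0.10 and -0.04) but was called lower in both under RLE scaling (-0.17 and -0.14).

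Of 15 genes around LARP1 and mTORC1, 5 rose and 3 fell in control cells and 7 rose and 3 fell in FDX1-OE cells, with medians of 0.05 and 0.07 that were -0.01 and -0.03 under RLE scaling. The shares that rose and fell lay near those over all genes, given above. The falls in control cells numbered 1 without control DMSO library 1 or either control ES library. LARP1, which binds TOP tracts, fell by 0.40 (adjusted p = 0.00154) and by 0.52 (adjusted p = 0.000133). SESN2, a stress-induced inhibitor of mTORC1, rose by 0.76 and by 1.41.

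Genes of a separate list around MDM2 are given singly, without a count. CDKN1A, the cell-cycle inhibitor p21, rose by 0.55 (adjusted p = 0.00204) and by 1.39 (adjusted p = 2.54e-06), but stayed low, with group means of 0.334 to 2.57 FPKM. BTG2, an antiproliferative gene, rose by 0.36 and by 0.72. MDM2 passed in neither, with 0.03 and -0.10, and with RLE scaling it was called lower in FDX1-OE cells (-0.20).

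Of 35 genes listed for ribosome assembly, 24 fell in control cells and 33 in FDX1-OE cells, and 0 rose, with medians of -0.29 and -0.51. The list spans the transcription of ribosomal RNA, its processing and later steps of assembly. Over the 18 alternative settings the falls numbered 20 to 30 and 32 to 33, and 0 rose in any. RRS1 gave -0.64 (adjusted p = 1.56e-05) and -0.88 (adjusted p = 6.87e-07), and NOP16 -0.63 (adjusted p = 8.14e-05) and -1.01 (adjusted p = 1.29e-06). Of 10 genes listed as chaperones of ribosomal proteins and related factors, 5 fell in control cells and 6 in FDX1-OE cells. None rose, and the medians were -0.19 and -0.37. Beside both lists, 12.9% of all genes fell and 25.5% rose in control cells. In FDX1-OE cells 19.2% fell and 37.0% rose, and the medians over all genes were 0.06 and 0.09. AAMP fell in both (-0.42 and -0.37), as did PDCD2L (-0.39 and -0.49). LTV1, which accompanies the small subunit, gave -0.11 (adjusted p = 0.252) and -0.65 (adjusted p = 3.19e-05).

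The ribosomal proteins of mitochondria make up a separate ribosome. Of 77 tested, 11 rose and 24 fell in control cells and 11 rose and 33 fell in FDX1-OE cells, with medians of -0.04 and -0.16. With RLE scaling 6 rose and 28 fell (median -0.10) and 7 rose and 43 fell (median -0.26). Over all genes, at the deposited scaling, 25.5% and 37.0% rose, 12.9% and 19.2% fell, and the medians were 0.06 and 0.09. In control cells the falls numbered 14 without control DMSO library 1 and 15 without control ES library 2, and the rises 6 without control DMSO library 2 or control ES library 1. In FDX1-OE cells the rises numbered 6 without FDX1-OE ES library 2. MRPL4 gave -0.40 and -0.65, MRPL36 -0.54 and -0.64, and MRPS34 -0.33 and -0.55, all called.

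**Figure D5:**
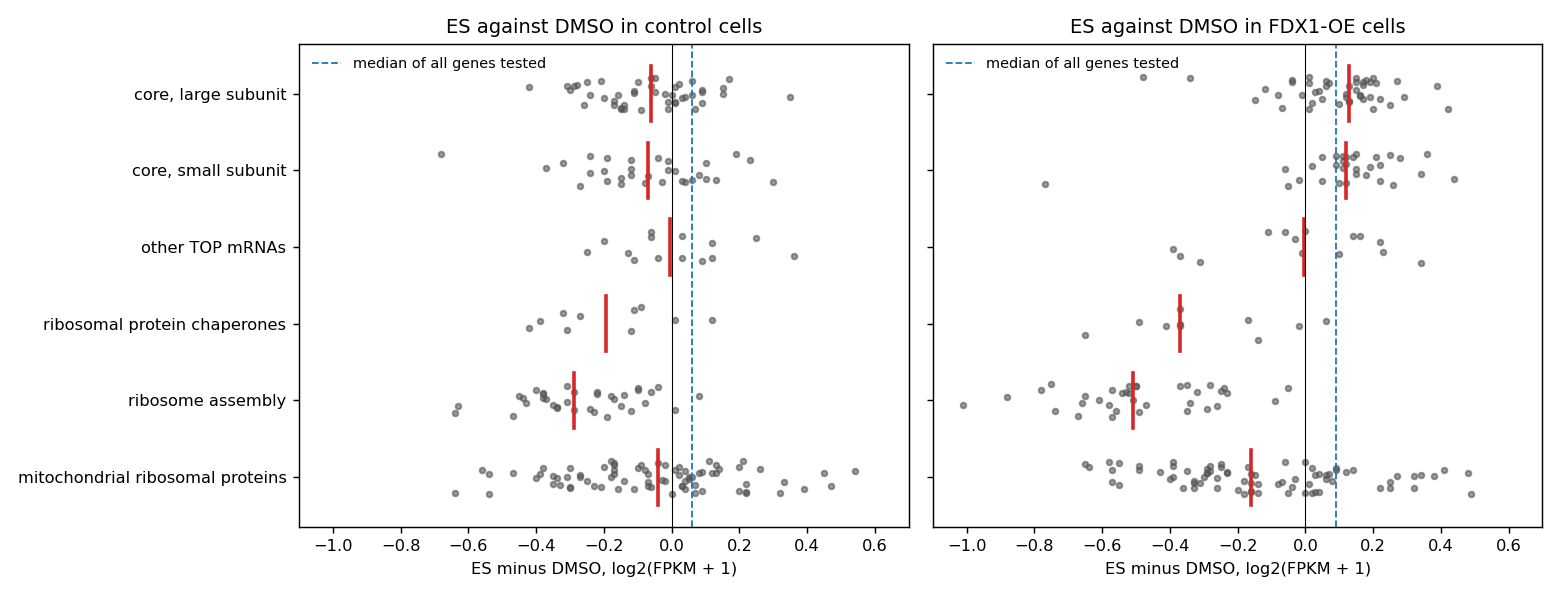
Difference of ES minus DMSO on the log2(FPKM + 1) scale in control cells (left) and FDX1-OE cells (right) for core ribosomal proteins and 4 further lists, with 1 point for each gene, a red bar at the median of each list and a dashed blue line at the median of all genes tested. Ribosome assembly genes lie mostly below 0, with medians of -0.29 and -0.51, while the medians of both subunits are -0.06 and -0.07 in control cells and 0.13 and 0.12 in FDX1-OE cells.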

How the data were processed

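Total RNA was made into RNA-seq libraries, 2 for each of 4 groups taken from the labels. The submitters' processing notes name HISAT2, HTSeq and R 3.2.0 and the build hg19, without roles. The authors deposited FPKM values for 15597 genes, a unit read from the values, since the file headers state none. For 99.97% of genes, all 84 members included, the values came out as whole reads within 0.001 read. This recovery gave the library totals (33435438 to 35883528), nearly all of them reads in the listed genes, and a limma-voom alternative.

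The main test was limma 3.58.1 (R 4.3.3), fitted to log2 values after a pseudocount of 1 FPKM, with the 4 group means, 8 libraries, 4 residual and 6.6 prior degrees of freedom and a mean trend. It was two-sided, with Benjamini-Hochberg adjustment over the 9805 genes that reached 1 FPKM in 2 or more libraries, and a call needed an adjusted p below 0.05. The method was tested on simulated data. Paralogue ratios were compared by exact permutation. Detection needed 3 reads (0.0836 to 0.0897 FPKM for a gene of 1 kb), a floor that covers counting error only. Alternatives changed the pseudocount, filter, scaling, trend, test, block and libraries used. A fit without 1 library keeps a single library in its group, and most such fits called fewer of all genes too.

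Named genes were, in each comparison, the 5 largest called rises and falls, the paralogues and partners, the stalk, RPL5, RPL11, RPSA, RPS6, RPS19, RPS27A, the 5 highest and 5 lowest levels, and in each other list the genes with the 2 smallest p for elesclomol. Other genes are named from cross-counts of calls or after their values were seen. Members and lists were chosen with earlier results of these data known. The labels do not state separate cultures for replicates, so a p-value reflects only how these libraries vary. A few genes are not reported here by name, though counts and medians over the members include them.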

Additional observations from a re-analysis of the deposited data

Results flagged for a closer look

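The response to elesclomol differed between control and FDX1-OE cells for 5 members by the interaction test in limma. RPLP1 differed by 0.52 (adjusted p = 0.0453), RPL31 by 0.42 (adjusted p = 0.0364), RPL39 by 0.42 (adjusted p = 0.0408), RPL37A by 0.37 (adjusted p = 0.0307) and RPL13 by 0.33 (adjusted p = 0.0407), all on the log2 scale and all with the larger value in FDX1-OE cells. Each call was lost in 8 to 11 of 17 alternative settings, with adjusted p up to 0.118 for RPL37A, 0.127 for RPL31, 0.15 for RPL13, 0.153 for RPL39 and 0.18 for RPLP1.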

How the results depend on the processing

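The alternatives were run on 60 named genes. Of the 112 differences called at the deposited scaling, 0 changed sign in any setting, and of the 188 not called 65 did. Over all these genes, comparisons and settings, 4953 values kept their side of the threshold, 269 lost a call and 108 gained one. Below, brackets after counts of members hold the shares of all genes called the same way in that setting. Without the filter on low values, elesclomol in control cells had 2 members higher and 11 lower (13.7% and 6.23%). There were 18 higher for elesclomol in FDX1-OE cells (26.6%), 3 higher for FDX1-OE in elesclomol (7.70%) and 0 higher for the interaction (1.01%). RLE scaling gave 3 and 36 in control cells (18.9% and 19.3%) and 9 and 12 in FDX1-OE cells (27.6% and 27.6%). It gave 2 lower for FDX1-OE in elesclomol (10.6%) and 3 higher for the interaction (2.56%). The RLE-scaled sum of the members was taken over 1 fixed total, the mean summed FPKM of a library. It differed from DMSO to ES by -1.49% of that total in control cells and by 0.25% in FDX1-OE cells. TPM scaling gave 8 higher in control cells (26.9%), 2 lower for FDX1-OE in elesclomol (7.85%) and 9 higher for the interaction (3.21%). Scaling to the genes that are not members gave 25 and 0 for FDX1-OE in elesclomol (15.9% and 6.37%) and 9 higher for the interaction (3.92%). Without a mean trend there were 20 higher in FDX1-OE cells (37.0%), 7 and 0 for FDX1-OE in elesclomol (13.2% and 5.88%) and 0 higher for the interaction (2.54%). limma-voom gave 9 higher in control cells (27.2%), 25 for FDX1-OE in elesclomol (16.3%) and 18 for the interaction (4.08%). log2(FPKM + 0.1) gave 2 higher for the interaction (1.68%), and the 4 libraries alone gave 0 lower for FDX1-OE in elesclomol (5.96%). The share of reads moved by 0.69 points in FDX1-OE cells, from a mean of 7.59% to 8.27%. The share of summed FPKM moved by 1.51 points, from 18.4% to 19.9%. These shares have different bases, so the points do not compare directly. With 1 library left out, members called higher and lower ran from 3 to 7 and 7 to 24 in control cells, from 15 to 37 and 5 to 9 in FDX1-OE cells, from 0 to 17 and 0 to 3 for FDX1-OE in elesclomol, and from 0 to 7 for the interaction, with 0 in DMSO throughout. Most of these fits also called fewer of all genes. The paralogue ratios with 1 library left out ran from -0.82 to -0.76 (RPL22L1), -0.19 to -0.07 (RPL26L1), 0.12 to 0.25 (RPL39L) and -0.25 to -0.12 (RPS27L). With the replicate block the interaction had 12 members higher (3.97%). Elesclomol gave 6 and 23 in control cells (25.6% and 13.2%) and 39 and 7 in FDX1-OE cells (37.4% and 19.5%). FDX1-OE in elesclomol gave 21 and 1 (13.9% and 8.24%). Same-numbered libraries showed no strong common deviation (r from -0.18 to 0.18). With 2 libraries in a group this cannot show whether the numbers pair them. Depth limits RPL36A, whose 1 to 10 reads lie about the floor, and RPS10, with 106 to 244 reads.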
